A study of Mus musculus with 10 samples.

Results

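Haemoglobin-rich erythroid barcodes were the droplets of a mouse prefrontal cortex suspension in which adult globin transcripts made up a large share of the captured RNA. A barcode was a member when at most 15% of its UMIs (unique molecular identifiers, which count captured RNA molecules) came from mitochondrially encoded genes and at least 20% came from 4 adult globin genes, the alpha genes Hba-a1 and Hba-a2 and the beta genes Hbb-bs and Hbb-bt. No minimum number of genes was asked for. There were 1018 members among 64937 deposited barcodes (1.57%), or 1.85% of the 55015 barcodes within the mitochondrial limit. The other 53997 barcodes within that limit are called the other barcodes throughout. A further 15 barcodes passed the globin threshold but not the mitochondrial limit, 12 of them in 1 library (rank 4 replicate 1), and were left out.

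Red blood cells arise in the bone marrow. Erythroblasts load themselves with alpha and beta globin and with haem, expel the nucleus, and enter the blood as reticulocytes, which lose their mitochondria, ribosomes and remaining RNA as they mature. A circulating red cell therefore makes no new transcripts and carries a small RNA pool dominated by globin mRNA. In brain tissue such cells lie inside the vessels unless blood is flushed out before dissociation. The adult alpha genes sit in a cluster on mouse chromosome 11 and the adult beta genes in a cluster on chromosome 7, and haemoglobin is a tetramer of alpha and beta chains with a haem group in each.

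The tissue came from the medial prefrontal cortex of C57BL/6N males, an inbred mouse strain, aged over 2 months, with no transgene or drug named in the labels. Social rank had been set by the tube test, in which the mouse that backs out of a narrow tube loses, and the groups were 5 libraries of rank 1 (dominant) and 5 of rank 4 (subordinate) animals. A library was a pool of tissue punches from 2 or 3 mice killed with CO2 the day after the last test, digested with papain at 37 °C for 60 min, triturated and passed through a 70 µm strainer. Libraries carry the labels' rank and replicate number, and n counts pooled libraries, not mice or barcodes.

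The libraries held 1838 to 15826 deposited barcodes and 4442750 to 29278466 UMIs. Deposited barcodes began at 500 to 1037 UMIs, depending on the library, so droplets below the authors' cell call were not analysed here. Per the file headers, replicates 1 to 3 of both ranks carried software version 3.1.0 and replicates 4 and 5 carried 4.0.0, with different gene lists. Of 64362 barcode sequences, 571 occurred in more than 1 library. Pairs of libraries within replicates 1 to 3 shared 6 to 104 sequences, pairs within replicates 4 and 5 shared 7 to 44, and pairs across the 2 sets shared 0 to 4. Of the 1016 barcode sequences of members, 16 also occurred in another library, and 2 were members in more than 1 library.

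The values that chose the members are given as a description. Members had 55.2% adult globin UMIs at the median, from 20% to 95.8%, and the other barcodes had 0.0305% at the median and 19.8% at most. Every member held UMIs of Hba-a1, Hba-a2 and Hbb-bs, and 1003 of 1018 held Hbb-bt as well. The threshold lay in a flat stretch of the distribution. Just inside it, 51 barcodes had 20% to 25% globin UMIs, a median of 1561 UMIs, and 59.7 UMIs of the erythroid gene list (defined with the expression results) per 10000 UMIs outside the adult globins. Just outside it, 35 barcodes had 15% to 20%, a median of 1828 UMIs and 40.5 such UMIs per 10000.

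**Figure D1:**
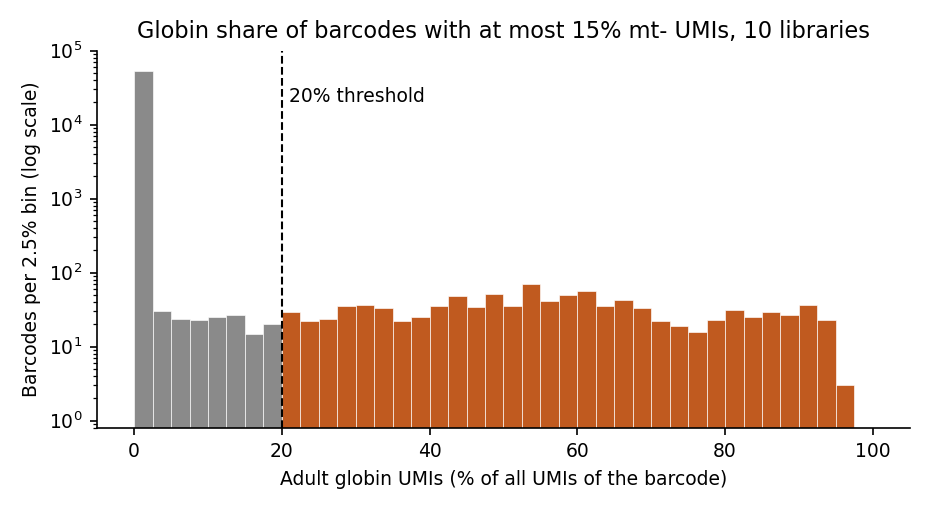
Number of barcodes (log scale) by adult globin share of their UMIs in bins of 2.5%, all 10 libraries pooled, with grey bars below and orange bars above the 20% threshold. The first bin held 53833 barcodes, and no bin from 2.5% to 25% held more than 30.

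Members were found in every library. In rank 1 they made up 2.58%, 2.14%, 2.16%, 2.30% and 1.40% of the barcodes within the mitochondrial limit in replicates 1 to 5, which were 128, 51, 37, 57 and 122 barcodes. In rank 4 they made up 3.27%, 1.17%, 1.53%, 1.55% and 1.61%, which were 161, 26, 68, 117 and 251 barcodes. The ranks overlapped, and rank 4 held both the highest and the lowest library. For the library with the fewest members the 95% exact (Clopper-Pearson) interval of the share was 0.767% to 1.71%, and for the one with the most it was 1.42% to 1.82%. These intervals cover counting error only.

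Members held fewer genes than the other barcodes at the median. Their median was 1223 UMIs and 388.5 genes, against 1506 UMIs and 972 genes in the other barcodes. A minimum of 500 genes would have removed 62.4% of the members and 10.3% of the other barcodes. At an equal depth of 500 UMIs per barcode, the expected number of genes was 189 in members and 389 in the other barcodes at the median, and the library medians were 42.5 to 230 in members and 368 to 406 in the others. The globin UMIs that chose the members fill part of these 500, so the lower number follows in part from the rule. Outside the adult globins a member carried a median of 483.5 UMIs, with library medians between 128 and 1102. The mitochondrial share was 2.09% of all UMIs in members and 5.50% in the others at the median, a share that the globin UMIs of members dilute. Per 10000 UMIs outside the adult globins, mt-Atp6 averaged 151 in members and 153 in the others over libraries, and mt-Co3 126 and 127. The libraries differed: members ranged from 72.6 to 345 for mt-Atp6 and from 47.4 to 381 for mt-Co3. They were higher than the others in 4 and 3 of 10 libraries.

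The libraries differed in how globin-rich their members were. In rank 1 the median globin share of a member was 69.8%, 83.6%, 89.0%, 73.1% and 46.2% in replicates 1 to 5. In rank 4 it was 58.5%, 90.8%, 68.2%, 49.4% and 51.7%. The ranks overlapped again. Members with at least 80% globin UMIs numbered 175, and none came from rank 1 replicate 5 or rank 4 replicates 4 and 5, where 490 members were found. These 175 had a median of 1644 UMIs, 127 genes and only 152 UMIs outside the adult globins.

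**Figure D2:**
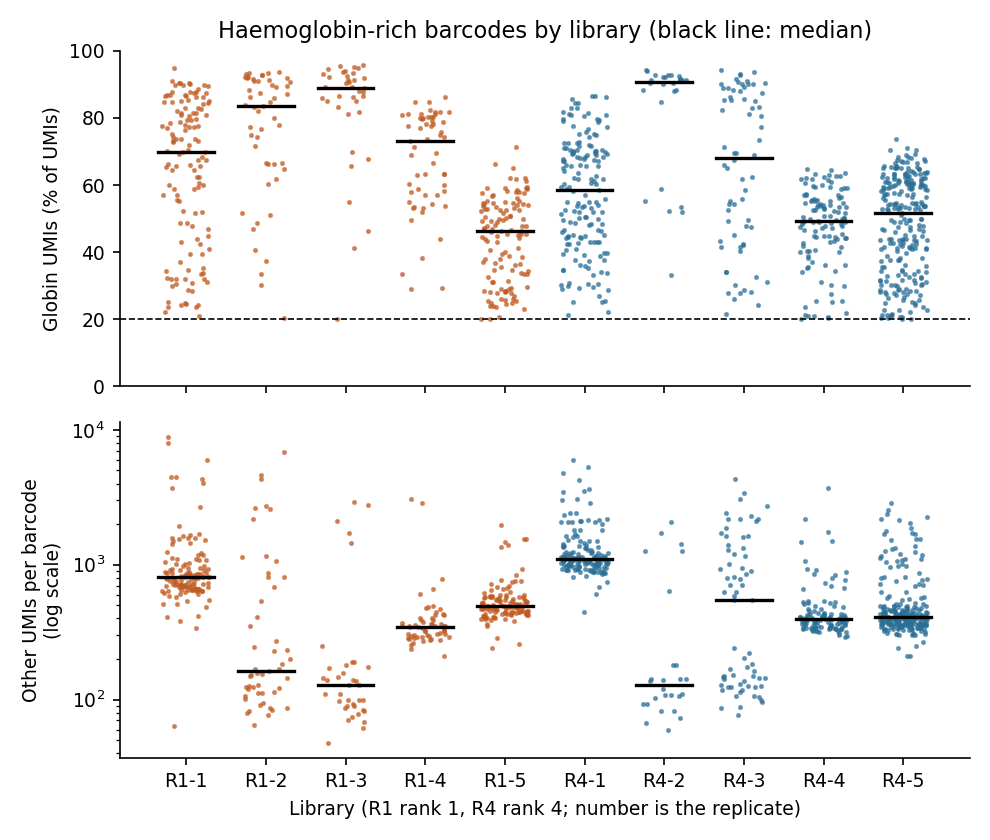
Each point is 1 of the 1018 members, by library (orange rank 1, blue rank 4), with the globin share of UMIs above and the number of other UMIs (log scale) below, and a black line at the library's median. The median globin share ranged from 46.2% to 90.8% and the median of other UMIs from 128 to 1102 between libraries, without separating the ranks.

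Globin transcripts were concentrated in the members. They held between 76.1% and 95.6% of all adult globin UMIs of the barcodes within the mitochondrial limit of a library. In the other barcodes the globin share of summed UMIs was 0.274%, 0.0781%, 0.0499%, 0.0660% and 0.0699% in rank 1 replicates 1 to 5. It was 0.218%, 0.0483%, 0.0733%, 0.109% and 0.0572% in rank 4. Replicate 1 of both ranks stood above the rest, and in these libraries 99.4% and 99.5% of the other barcodes held at least 1 globin UMI, against 22.0% to 72.7% elsewhere. Across the 10 libraries the share of members and the globin share of the other barcodes had Pearson's r of 0.708 (permutation p = 0.0512) and Spearman's rho of 0.503 (permutation p = 0.141), 1 relation with no adjustment. Without the 2 replicate 1 libraries, the farthest from the median share, r was -0.0286 (permutation p = 0.992), so the relation rested on those libraries. Within replicates 1 to 3, 6 libraries, r was 0.760 (exact permutation p = 0.0833). Replicates 4 and 5 were too few for a value.

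The globin genes themselves came first. Members held 310801 UMIs of Hba-a1, 236879 of Hba-a2, 596587 of Hbb-bs and 93957 of Hbb-bt, in UMI counts that are not corrected for transcript length. On the mm10 (GRCm38) assembly, Hba-a1 lies at chr11:32283511-32284465 and Hba-a2 at chr11:32296489-32297298 on the plus strand, and Hbb-bs at chr7:103826534-103828096 and Hbb-bt at chr7:103812524-103813996 on the minus strand, each with 3 exons in its longest annotated transcript. The annotated transcripts of Hba-a1 and Hba-a2 were identical at 537 of 538 aligned bases, so the split of reads between these genes is uncertain. Those of Hbb-bs and Hbb-bt were identical at 92.7% of aligned bases and at 70.1% over the last 100, so their counts can be told apart more readily.

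The stretches before the starts of these genes are shown because the share of Hbb-bt among beta transcripts varied widely from member to member, as described below, and Hba-a2 stands beside them as an alpha gene. The sequences are the 250 bases before the RefSeq start of each gene on GRCm38.p6, written 5′ to 3′ along the gene's strand, and Alas2, the marker outside the globins, is added. The GENCODE genes begin upstream of the RefSeq starts, so the windows reach into them, by 3 bases for Hba-a2, 168 for Hbb-bs, 73 for Hbb-bt and 42 for Alas2. Capitals mark 3 motifs searched on both strands: AGATAA, a sequence that GATA factors recognise, CCACACCC, a box of the kind that the erythroid factor Klf1 recognises, and CCAAT, a general promoter box. On the opposite strand they read TTATCT for the first, GGGTGTGG for the second and ATTGG for the third. No motif overlapped another here.
Hba-a2 (chr11:32296242-32296491, plus strand): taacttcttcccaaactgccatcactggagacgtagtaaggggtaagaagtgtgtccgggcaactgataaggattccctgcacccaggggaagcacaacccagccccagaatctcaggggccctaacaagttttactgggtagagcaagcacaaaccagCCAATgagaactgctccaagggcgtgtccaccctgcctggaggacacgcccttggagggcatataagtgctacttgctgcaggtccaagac
Hbb-bs (chr7:103827929-103828178, minus strand): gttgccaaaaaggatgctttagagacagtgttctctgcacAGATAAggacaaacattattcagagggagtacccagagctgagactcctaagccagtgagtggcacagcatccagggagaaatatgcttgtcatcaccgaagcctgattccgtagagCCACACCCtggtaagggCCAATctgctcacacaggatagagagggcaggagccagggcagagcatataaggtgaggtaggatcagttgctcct
Hbb-bt (chr7:103813924-103814173, minus strand): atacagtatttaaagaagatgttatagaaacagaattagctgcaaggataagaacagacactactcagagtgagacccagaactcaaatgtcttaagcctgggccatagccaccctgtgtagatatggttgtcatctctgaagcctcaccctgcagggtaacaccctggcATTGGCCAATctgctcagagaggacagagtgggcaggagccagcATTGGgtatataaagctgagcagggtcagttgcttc
Alas2 (chrX:150547167-150547416, plus strand): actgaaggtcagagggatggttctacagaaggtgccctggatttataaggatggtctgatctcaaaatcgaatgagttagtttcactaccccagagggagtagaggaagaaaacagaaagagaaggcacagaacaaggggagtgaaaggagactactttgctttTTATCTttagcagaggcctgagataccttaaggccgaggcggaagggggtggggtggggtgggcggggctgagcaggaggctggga
The Hba-a1 window was identical to that of Hba-a2 over 247 aligned bases and is not printed. The windows of Hbb-bs and Hbb-bt were identical at 71.7% of 244 aligned bases. Hbb-bs held all 3 motifs, with CCACACCC beginning 93 bases and CCAAT 76 bases before the start. Hbb-bt held CCAAT at 3 places, 80, 75 and 36 bases before the start, and neither of the other motifs in this window. CCACACCC and CCAAT of Hbb-bs and the nearest CCAAT of Hbb-bt lie inside the GENCODE genes. Alas2 held AGATAA on the opposite strand, 86 bases before the start. Of all 32851 promoter windows of this length, 9.99% held AGATAA, 3.20% held CCACACCC and 33.8% held CCAAT. Of 54 windows of 43 genes, the erythroid list genes and the adult globins together, 18.5%, 1.85% and 50% did. The windows described here are among these 54, and the 1 with CCACACCC was that of Hbb-bs. A match or its absence is a description of these letters and says nothing on binding.

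Hba-a2 could not be told from Hba-a1 by the 84 aligned bases near the 3′ end of the transcripts, so its share may depend on how reads were assigned, which was not tested. That share of alpha UMIs, summed over the members of a library, was 44.0%, 42.4%, 41.7%, 43.5% and 43.7% in rank 1 replicates 1 to 5 and 43.1%, 42.9%, 42.8%, 43.5% and 42.5% in rank 4. Among the members of 1 library its SD was 1.04 to 1.72 times the SD that counting alone gives at their alpha UMI numbers. The difference between the ranks was 0.107 percentage points (exact permutation p = 0.825, n = 5 and 5).

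Alpha and beta transcripts split differently in 2 sets of libraries. Alpha genes gave 49.6%, 53.7%, 53.5%, 27.1% and 28.0% of the members' adult globin UMIs in rank 1 replicates 1 to 5. In rank 4 they gave 46.3%, 51.9%, 55.3%, 28.8% and 26.9%. Replicates 1 to 3 of both ranks lay at 46.3% to 55.3% and replicates 4 and 5 at 26.9% to 28.8%, with no overlap. The mean was 51.7% ± 3.29 (SD, n = 6) in the first set and 27.7% ± 0.835 (SD, n = 4) in the second. A two-sided exact permutation test over the libraries gave p = 0.00952, the smallest that 6 against 4 libraries allow. It was 0.0762 after Benjamini-Hochberg adjustment over 8 such comparisons, a grouping chosen after the values were seen. Among these comparisons, median UMIs per member (means of 1986 and 997) had the same adjusted p. Genes per 500 UMIs (104 and 195) had an adjusted p of 0.102 by the same test. The other barcodes showed the same split, with alpha at 44.7% to 59.7% of their globin UMIs in replicates 1 to 3 and 24.4% to 27.5% in replicates 4 and 5. The software version and gene list changed between the same sets, as did the level of Gm42418, an unnamed gene model on chromosome 17 that overlaps AY036118 and is known to collect ribosomal RNA reads. In members it stood at 3.39 to 6.76 UMIs per 10000 UMIs outside the adult globins in replicates 1 to 3 and at 321 to 859 in replicates 4 and 5. The software version and anything else that differed between these sets of libraries cannot be told apart as sources of this split.

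**Figure D3:**
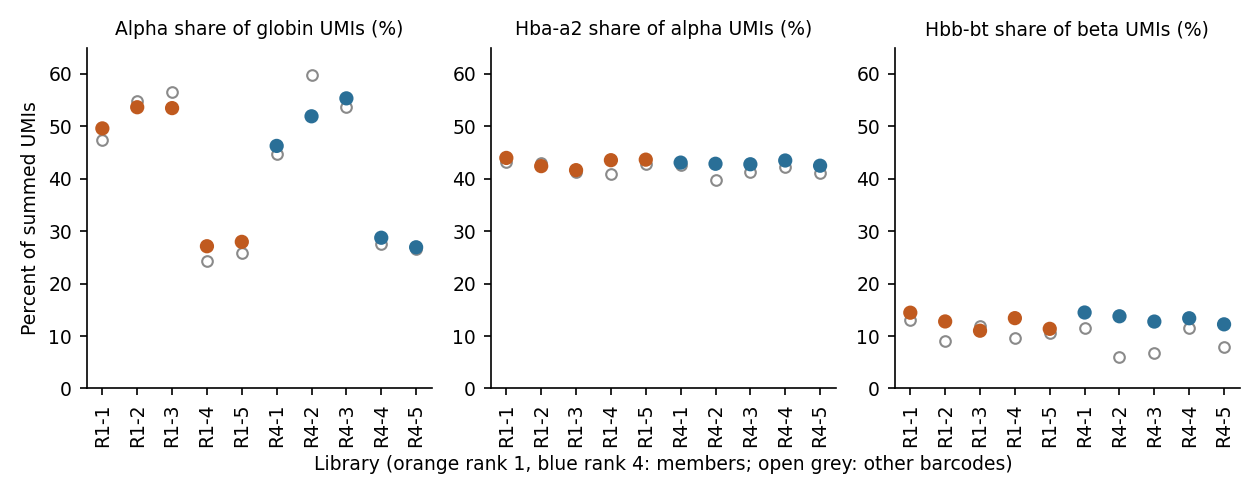
Share (percent of summed UMIs) of alpha genes among adult globin UMIs, of Hba-a2 among alpha UMIs and of Hbb-bt among beta UMIs, by library, filled for members (orange rank 1, blue rank 4) and open grey for the other barcodes. The alpha share of members sat at 46.3% to 55.3% in replicates 1 to 3 and at 26.9% to 28.8% in replicates 4 and 5, while the other shares of members moved within 41.7% to 44.0% and 11.0% to 14.5%.

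Hbb-bt took a share of the beta transcripts that varied from member to member. Its share of beta UMIs, summed over members, was 14.5%, 12.8%, 11.0%, 13.4% and 11.4% in rank 1 replicates 1 to 5 and 14.5%, 13.8%, 12.8%, 13.4% and 12.2% in rank 4. The library sums were therefore close. Within a library the SD over members was 2.63 to 5.13 times the counting SD. The 5th percentile of members lay between 0.0155% and 7.27% and the 95th percentile between 18.5% and 23.5%, depending on the library. In bins of 2%, the fullest held 132 members at 2% to 4%, counts fell to 63 at 10% to 12%, and a second high bin held 104 at 16% to 18%.

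Members with little Hbb-bt were poorer in erythroid transcripts. At a share of 5%, a value chosen after the distribution was seen, 296 members fell below (29.1%) and 722 at or above, and 73 members lay between 4% and 6%. Members below had fewer UMIs in 10 of 10 libraries, with a library median of 668 to 1972 against 835 to 4775. Per 1000 adult globin UMIs, and so relative to the RNA that defined them, they also held less of the erythroid list in 10 of 10 libraries, 3.57 to 10.5 against 6.36 to 18.1. Alas2 stood at 1.34 per 1000 globin UMIs in the pooled members below and 2.32 in those above. Bpgm stood at 0.330 and 1.34, and Mkrn1 at 0.165 and 1.26. An Alas2 UMI was held by 41.2% and 83.0% of them, at unequal median depths of 896 and 1349.5 UMIs. That share was lower below in 9 of 10 libraries. Per 1000 globin UMIs, Alas2, Bpgm, Isg20, Mkrn1, Ube2l6 and Fech were each lower in the group with little Hbb-bt in 10 of 10 libraries. Some of these values were 0, in groups of 1 to 21 members. Isg20 was at 0 there in rank 1 replicates 2, 3 and 4 and rank 4 replicate 2. Bpgm and Fech were at 0 in rank 1 replicate 3 and rank 4 replicate 2. Mkrn1 was at 0 in rank 4 replicate 2 and Ube2l6 in rank 4 replicate 4. Tfrc, the transferrin receptor that reticulocytes shed, was close in the pooled members, at 0.0640 below and 0.0704 above. It was lower in 8 of 10 libraries, 3 of them at 0 with 1 to 10 members below, and stood at 0.413 against 0.112 in rank 4 replicate 4. In rank 4 replicate 2 only 1 member fell below 5%. The share of alpha among globin UMIs was 44.9% below and 44.1% above in the pooled members, and it was lower below in only 2 of 10 libraries. No test was made, since the groups were chosen from the values.

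**Figure D4:**
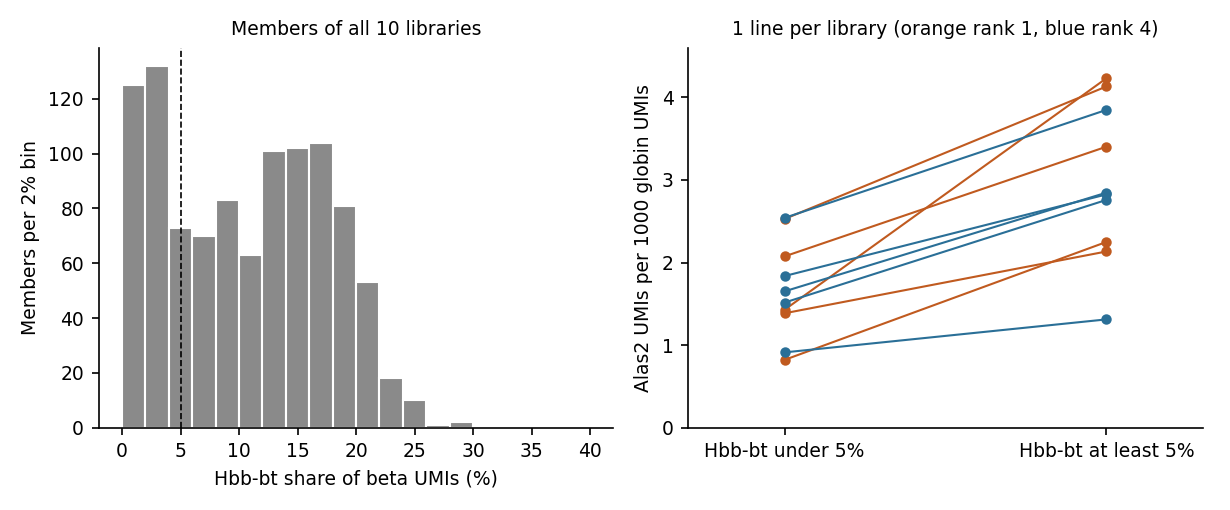
Left, number of members by Hbb-bt share of their beta globin UMIs in bins of 2%, with the 5% value dashed. Right, Alas2 UMIs per 1000 adult globin UMIs in members below and at or above 5%, 1 line per library (orange rank 1, blue rank 4), which was lower below 5% in 10 of 10 libraries; rank 4 replicate 2 has 1 member below 5%.

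Beyond the globins, transcript levels are given as UMIs per 10000 UMIs outside the 4 adult globins, averaged with equal weight over the 10 libraries. Setting members against the other barcodes repeats the contrast that the rule made, so it is described without a test. Of 6371 genes with at least 20 UMIs in members, 2.9% were higher in members in all 10 libraries and 6.53% were lower in all 10. The lists of erythroid genes, 58 names of which 56 were in both gene lists, were chosen from textbook roles. Of the list genes with at least 20 UMIs, the number higher in 10 of 10 libraries was 3 of 6 for haem synthesis and mitochondrial iron, 2 of 6 for red cell membrane and cytoskeleton, 1 of 3 for transcription factors, 4 of 7 for haemoglobin chaperone, redox and gas handling, and 5 of 9 for reticulocyte maturation. Over every matched gene of a list, also those with few or no UMIs, the median log2 ratio (with 1 added to each level) was 0.12 for 11, 0.00962 for 15, 0 for 8, 0.95 for 8 and 0.42 for 14 genes in the same order, against -0.000462 over all 30402 genes outside the adult globins.

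Alas2, the erythroid form of the enzyme that makes the first and rate-limiting step of haem synthesis, had the highest ratio to the other barcodes among genes outside the adult globins found in at least 5% of members, with or without 1 added to each level. Its level in members was 49.7, 66.7, 121, 44.8 and 25.7 in rank 1 replicates 1 to 5 and 21.1, 116, 32.7, 22.7 and 22.3 in rank 4, a mean of 52.3 ± 38.0 (SD, n = 10). The other barcodes stood between 0.00228 and 0.0476, far under every library of members. An Alas2 UMI was found in 721 of 1018 members, or 70.8% (95% exact interval 67.9% to 73.6%), at a median depth of 1223 UMIs, and in 193 of the other barcodes, or 0.357%, at a median of 1506. At an equal 500 UMIs the expected shares were 44.2% and 0.107%. Relative to globin, Alas2 stood at 2.17 UMIs per 1000 adult globin UMIs in members, 1.97 in the 134 other barcodes with 5% to 20% globin and 1.61 in those below 5%. Isg20, an exoribonuclease of the reticulocyte list, ran the other way, at 0.229, 0.353 and 1.38. Alas2 lies at chrX:150547375-150570638 on the plus strand and overlaps Apex2 on the opposite strand.

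The rest of the haem pathway was sparse. Fech, which inserts iron into the ring in the last step, stood at 8.04 ± 6.82 in members and 0.448 in the others, and Slc25a37, which carries iron into mitochondria, at 2.84 ± 2.87 and 0.123 (SD, n = 10 libraries). Both were higher in members in 10 of 10 libraries. The middle steps were close to the other barcodes: Alad 0.531 and 0.344, Urod 0.471 and 0.353, Cpox 0.416 and 0.556, higher in 7, 6 and 4 libraries.

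Genes of gas handling and redox defence followed. Bpgm, which makes the bisphosphoglycerate that lowers oxygen affinity, had levels of 22.5, 19.5, 29.8, 41.3 and 21.5 in rank 1 replicates 1 to 5 and 11.1, 66.6, 9.88, 22.7 and 18.4 in rank 4. The other barcodes had 0.375 to 0.795, below every library of members. Prdx2, an abundant red cell peroxiredoxin, stood at 7.58 and 3.18, and Blvrb, a flavin reductase, at 3.02 and 0.334, both higher in 10 of 10. Car2, a carbonic anhydrase, stood at 5.01 and 3.43 and was higher in 8 of 10, Cat (catalase) and Glrx5 (iron-sulphur cluster assembly) in 9 each. Car1 had no UMI in members.

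Reticulocyte maturation, in which proteins and organelles are cleared, gave 5 genes that were higher in every library. Mkrn1, an E3 ubiquitin ligase, had levels of 16.8, 27.6, 37.9, 44.8 and 19.0 in rank 1 replicates 1 to 5 and 8.67, 55.3, 15.9, 18.7 and 17.7 in rank 4, and 0.731 to 1.25 in the other barcodes. Ube2l6, a conjugating enzyme for ubiquitin-like proteins, stood at 20.9 ± 21.6 and 0.120. Bnip3l, the receptor through which reticulocytes clear mitochondria, stood at 13.9 ± 10.7 and 1.83. Isg20 stood at 5.45 ± 4.01 and 0.0126, and Fam46c (also Tent5c), a poly(A) polymerase, at 4.53 ± 3.53 and 0.0593. For each of these 5 the lowest library of members lay above the highest of the other barcodes, a description, since no such count was made over all genes. Tfrc stood at 1.51 and 0.658 (9 of 10 libraries) and Ube2o at 1.54 and 0.803 (8 of 10), while Fbxo7 and Xpo7 were higher in only 4 and 3. Trim58 and Alox15 had 0 UMIs in members, Hemgn 4 and Epor 5.

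Membrane and regulator transcripts were scarce. Epb41, which ties the membrane skeleton to the membrane, stood at 3.46 ± 2.70 and 0.313, higher in 10 of 10 libraries. Add2 and Dmtn, which also bind the membrane skeleton, had lower means in members, 0.497 against 0.801 and 0.697 against 1.06, and each was higher in 1 of 10 libraries. Tspan33, a tetraspanin, stood at 0.579 and 0.351 (7 of 10). Slc4a1, the red cell anion exchanger, had 26 UMIs in 24 members and 1 in the others. Epb42 had 1 UMI, and Rhag, Rhd and Ermap had 0 in members. Gata1, Klf1, Nfe2 and Gfi1b, factors of nucleated erythroid precursors, had 0 UMIs in members. Lmo2, which endothelial cells also express, stood at 2.08 and 0.482 and was higher in 10 of 10 libraries. Bcl11a, a repressor of globin genes that neurons also express, stood at 0.349 against 0.916 and was higher in 0 of 10, and Zfpm1, a partner of Gata1, at 0.231 and 0.131 (6 of 10). The embryonic globins Hba-x, Hbb-y, Hbb-bh1 and Hbb-bh2 had 0 UMIs in members, and Hbq1a, a theta globin of the alpha cluster, had 45 UMIs in 42 members. Cygb, a globin of other cells, stood at 0.251 against 0.543 and was higher in 2 libraries.

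**Figure D5:**
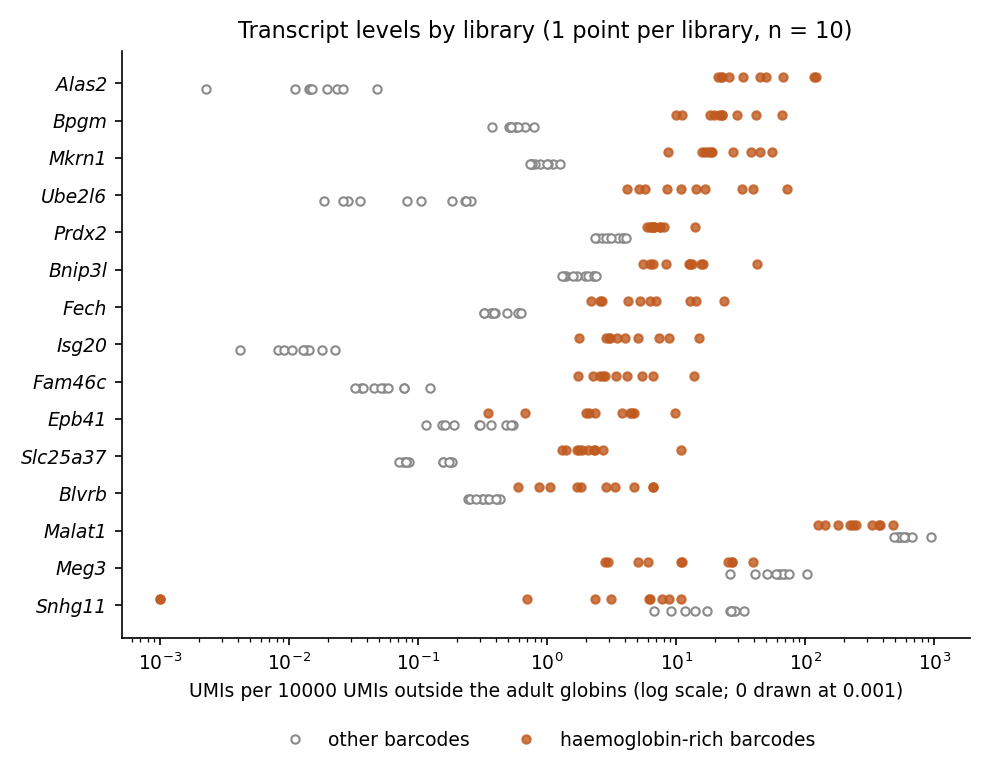
Levels (UMIs per 10000 UMIs outside the adult globins, log scale) of 12 erythroid list genes and 3 nuclear RNAs, 1 point per library, filled orange for members and open grey for the other barcodes. Alas2 lay at 21.1 to 121 in members and at most at 0.0476 in the others, whereas Malat1, Meg3 and Snhg11 were lower in members in all 10 libraries.

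Nuclear RNAs were lower in members. Malat1, a long RNA that stays in the nucleus, had levels of 375, 381, 249, 126 and 179 in rank 1 replicates 1 to 5 and 143, 332, 476, 233 and 224 in rank 4, against 486 to 947 in the other barcodes. Meg3 stood at 15.7 ± 12.8 against 61.8 and Snhg11 at 4.59 ± 3.90 against 20.1. Of 6 nuclear RNAs with at least 20 UMIs, 5 were lower in members in all 10 libraries, and Neat1 was higher in 6. Malat1 had no UMI in 108 members, 68 of them among the 175 with at least 80% globin, where the median was 1 Malat1 UMI. The members with 20% to 50% globin had a median of 6 Malat1 UMIs. These counts were at unequal depth, with medians of 152 UMIs outside the adult globins at 80% or more and 664.5 at 20% to 50%. Per 10000 such UMIs, pooled over members, Malat1 stood at 81.6 and 366.

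The 20 genes with the highest ratio to the other barcodes, with 1 added to each level and among the 2570 genes found in at least 5% of members, were not all on the erythroid lists. Alas2, Ube2l6, Bpgm, Mkrn1, Isg20, Fech, Bnip3l and Fam46c were on the lists. Cd24a, a surface antigen of red cells and other cells, Sec61g, Gpx1, Pabpc1, Adipor1 and March2 were outside them and higher in 10 of 10 libraries, and Fam220a in 8. Gpx1, a glutathione peroxidase, stood at 10.1 ± 7.77 and 1.27, and Pabpc1, the poly(A)-binding protein, at 11.2 ± 7.40 and 1.53. Itm2a, Klf2, Cldn5, Bsg and Ly6c1 are genes of brain endothelial cells, and they stood among the 20 only with 1 added. Cldn5, a tight junction protein, stood at 22.3 ± 16.4 in members and 4.40 in the others, and Itm2a at 30.5 ± 35.7 and 4.66. By the ratio with nothing added, an order made after the data were seen, 11 of the 20 were the same genes. Slc25a37, Epb41 and Blvrb of the lists were then among the 20, at 23.0, 11.1 and 9.04 times the other barcodes, and those 5 endothelial genes stood at 4.44 to 6.55 times and in places 29 to 68.

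Part of the members carried markers of other cells. At least 3 markers of 1 class of brain or vessel cells were found in 400 of 1018 members. These were 53.3% of those with 20% to 50% globin, 36.9% of those with 50% to 80% and 13.7% of those with at least 80%. Markers are found among the UMIs outside the adult globins, whose medians in these bands were 664.5, 452 and 152. The bands therefore differ in the depth at which a marker can be found. At least 3 of 7 neuron markers were found in 262 members, of which 73 and 90 were in rank 4 replicates 1 and 5 and 0 in 3 libraries. At least 3 of 5 endothelial markers were found in 99, of which 30 were in rank 4 replicate 3. The lists differ in length, so these counts are not ranked. The summed endothelial list ranged over libraries from 12.3 to 178 in members and from 7.30 to 22.5 in the other barcodes, with all 5 markers present, and was higher in members in 9 of 10 libraries. The summed neuron list, with all 7 present, ranged from 4.69 to 58.8 and from 19.5 to 60.4 and was higher in 1 of 10. The 99 members with endothelial markers had a median of 2635 UMIs and 959 genes, and 84.8% of them held an Alas2 UMI. No member had 3 markers of a blood class, and the neutrophil, monocyte and perivascular macrophage markers were all at 0. No doublet caller was applied to the members, and whether these barcodes held 2 cells, attached cells or free RNA was not tested.

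The leading erythroid genes were also higher than in the other barcodes once these 400 members were set aside. In the remaining 618, Alas2 stood at 144, Bpgm at 65.4, Mkrn1 at 64.9 and Ube2l6 at 69.0, each higher than in the other barcodes in 10 of 10 libraries. These 618 were still chosen by their globin share, so this repeats the contrast that the rule made. They had a median of 405 UMIs outside the adult globins, against 927 in the 400 set aside. Levels are counted per such UMI, so the rise over all members, from 52.3 to 144 for Alas2, can follow in part from the removal. An Alas2 UMI was held by 69.6% of the 618 and 72.75% of the 400, at unequal median depths of 1052 and 1836 UMIs. Cldn5, Itm2a and Ly6c1 are markers by which members were removed, so their low levels in the 618, 3.21, 1.99 and 0.395, follow from the removal. Klf2 and Bsg, which are not on the marker lists, stood at 2.64 and 12.6, each higher in members in 3 libraries. Malat1 stood at 90.6 and was lower in all 10.

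The question posed by the design, whether rank 1 and rank 4 differed, was put to the members in 8 values per library, with two-sided exact permutation tests of 5 against 5 libraries, whose smallest possible p is 0.00794. None was past the threshold, and the adjusted p was 0.889 for all 8. Members made up 2.12% ± 0.439 of rank 1 and 1.83% ± 0.827 of rank 4 barcodes (SD, n = 5 each; exact permutation test, p = 0.548). The difference was 0.291 percentage points over all libraries, 0.303 within replicates 1 to 3 and 0.272 within replicates 4 and 5. With single libraries omitted it ran from 0.127 without rank 4 replicate 2 (exact permutation p = 0.857) to 0.653 without rank 4 replicate 1 (exact permutation p = 0.0635), and 0.174 without rank 1 replicate 1 and 0.471 without rank 1 replicate 5. Globin in the other barcodes was 0.108% ± 0.0936 and 0.101% ± 0.0695 (exact permutation p = 0.825), and the difference was 0.0207 and -0.0150 percentage points within the 2 sets.

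The make-up of the members' globin did not separate the ranks either. The alpha share was 42.4% ± 13.6 for rank 1 and 41.8% ± 13.2 for rank 4 (n = 5 each; exact permutation test, p = 0.889), with differences of 1.07 percentage points within replicates 1 to 3 and -0.293 within 4 and 5. The Hbb-bt share was 12.6% ± 1.43 and 13.3% ± 0.876 (exact permutation p = 0.357, n = 5 each), with differences of -0.922 and -0.418 within the sets. The difference of -0.720 over all libraries became -1.18, -0.322 and -0.412 without rank 1 replicates 1, 3 and 5, -0.430 without rank 4 replicate 1 and -1.45 at a globin threshold of 50%. The Hba-a2 difference was -0.228 and 0.609 within the sets.

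The erythroid list made up 187, 246, 348, 269 and 134 of 10000 UMIs outside the adult globins in rank 1 replicates 1 to 5. It made up 104, 484, 139, 136 and 125 in rank 4. The 4 lower libraries of rank 4 overlapped only with the lowest of rank 1, and rank 4 replicate 2 was the highest of all. The means were 236 ± 81.7 and 198 ± 161 (exact permutation p = 0.659, n = 5 each), and the difference was 17.8 within replicates 1 to 3 and 70.4 within 4 and 5. Over all libraries it was 38.9, and it became 89.9 at a globin threshold of 50% and 23.5 without members holding 3 markers of another class. Leaving out 1 library at a time gave differences from 10.9 without rank 1 replicate 3 (exact permutation p = 0.937) to 110 without rank 4 replicate 2 (exact permutation p = 0.0476, adjusted p = 0.381), the latter a library with 26 members. It was 15.4, 24.2, 23.5 and 20.7 without rank 4 replicates 1, 3, 4 and 5, and 64.6 without rank 1 replicate 5. Median UMIs per member were 1631 ± 882 and 1550 ± 841 (exact permutation p = 0.825, n = 5 each), with differences of -23 and 237.5 within the sets. Genes per 500 UMIs were 124 ± 67.9 and 157 ± 71.8 (exact permutation p = 0.468, n = 5 each), with differences of -27.6 and -40.8. The difference of -32.9 over all libraries became -61.6 without rank 4 replicate 2, -59.4 without rank 1 replicate 5, -20.3 and -16.2 without rank 1 replicates 2 and 3, -18.4 and -18.1 without rank 4 replicates 4 and 5, and -18.9 at a globin threshold of 50%.

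Gene by gene, edgeR's quasi-likelihood test on counts summed over the members of each library called 0 of 678 tested genes (0% in either direction) at a Benjamini-Hochberg adjusted p of 0.05. At an unadjusted p under 0.05 there were 2 genes, and DESeq2 called 0 with 5 unadjusted. The smallest adjusted p was 0.998. Among the lists, 3 genes of haem synthesis, 6 of chaperone, redox and gas handling, 1 of the membrane and 5 of reticulocyte maturation were tested and none passed, with median log2 differences (rank 1 over rank 4) of 0.54, 0.26, 0.41 and 0.17 against -0.00163 over all genes tested. The 4 adult globins, whose summed share chose the members, had 0.40 to 0.50 as a description. Alas2 had 0.54 ± 0.46 (SE, edgeR adjusted p = 0.998).

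The 5 genes with the smallest p were outside the erythroid lists. Fam213a and Prdx6, of thiol redox chemistry, had log2 differences of 0.92 ± 0.36 and 1.05 ± 0.42 (SE). Ncoa4, the receptor that delivers ferritin for breakdown and iron release, had 1.03 ± 0.49. Tpm1, a tropomyosin, had -0.71 ± 0.35 and Cst3, a protease inhibitor abundant in glia, had -0.74 ± 0.37. The Cst3 difference was -0.18 at a globin threshold of 50%, -0.27 without members holding 3 markers of another class and -0.46 without rank 4 replicate 2, and that of Fam213a was 0.53 without rank 1 replicate 4. The edgeR adjusted p of each was 0.998. In same-numbered pairs, Fam213a was higher in rank 1 in 5 of 5, Prdx6 and Ncoa4 in 4, and Tpm1 and Cst3 in 0. These genes were picked by the same contrast, so their pair counts follow in part from the pick. Pools of mice are the replicates, so p-values measure the spread between pools.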

How the data were processed

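The deposited files are UMI counts, raw counts per gene and barcode in 1 sparse matrix per library; Cell Ranger 4.0.0 and mm10 are named per the submitters' processing notes, and the matrices give versions 3.1.0 and 4.0.0 per the file headers. Library totals were taken over all genes and levels over the 30406 genes common to both lists. Samples were grouped by the rank in their titles. Gene positions come from GENCODE M21 on GRCm38, in which 30329 of these identifiers were found. No column belonged to another series.

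Thinning to 500 UMIs used the expected number of genes. Rank was tested with exact permutation tests (scipy 1.17.1) and, on summed counts of libraries with at least 20 members, edgeR 4.0.16 with TMM factors, filterByExpr and gene-list version as covariate. DESeq2 1.42.0, other thresholds, a replicate block and leaving out each library were alternatives. The test was checked on simulated data. Deviations of same-numbered libraries from their rank means correlated at 0.368 to 0.787 over 678 genes. The numbers also carry the version, and with deviations taken within a version the correlations of replicates 1 to 5 were 0.829, 0.0571, 0.346, -0.0470 and -0.0470. Named genes were the adult globins, list genes with at least 20 UMIs in members, the 20 with the highest ratio (1 added to each level) and the 5 with the smallest p. List genes at 0 or with fewer UMIs, the order with nothing added, Gm42418 and the genes per 1000 globin UMIs were named after their values were seen. Some list genes are not reported here. Members and lists were chosen with earlier results of these data known.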

Additional observations from a re-analysis of the deposited data

Results flagged for a closer look

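In 4 of 16 groups of 5 libraries 1 library stood apart from the others of its rank by Dixon's test, and chance gives 0.8. The share of members in rank 4 replicate 1 was 3.27%, and the nearest library had 1.61%. Globin UMIs in the other barcodes of rank 1 replicate 1 were 0.274%, and the nearest library had 0.0781%. The erythroid list in members of rank 4 replicate 2 made up 484 per 10000 UMIs outside the adult globins, and the nearest library had 139. Members of rank 1 replicate 1 had a median of 3161.5 UMIs, and the nearest library had 1547.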

How the results depend on the processing

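Of 252 values recomputed under alternatives, 229 kept their direction and side of the threshold, 23 reversed and none passed an adjusted p of 0.05. They covered 8 library values, the count of called genes and 5 named genes. The smallest was 0.0794 (exact permutation test), for the share of members over all deposited barcodes, a difference of 0.382 percentage points. That setting held 1 value, so its p was in effect unadjusted. At a mitochondrial limit of 30% the share difference was 0.391 (exact permutation p = 0.0952, adjusted p = 0.762). The rank 1 minus rank 4 difference in globin of the other barcodes turned to -0.0484 percentage points at a globin threshold of 50%, to -0.00642 at a mitochondrial limit of 30% and to -0.0150 in replicates 4 and 5. The difference in the share of members turned to -0.301 with at least 500 genes. In replicates 1 to 3 the Hba-a2 difference was -0.228 and the difference in median UMIs -23, and in replicates 4 and 5 the alpha difference was -0.293. Leaving out 1 library at a time gave -0.0352 to 0.0357 for globin of the other barcodes, -3.20 to 4.33 for alpha, -0.126 to 0.457 for Hba-a2 and -301 to 427 for median UMIs, and the causes were not tested. The replicate block, with paired p = 0.4375 for the share of members (exact sign-flip test, smallest possible 0.0625), changed no call among 14 values, and with it edgeR called 0 genes, 14 at an unadjusted p under 0.05. With no filter on low counts, 0 of 14504 genes were called (smallest edgeR adjusted p = 0.130). Leaving out members with 3 markers of another class, added after the data were seen, gave a share difference of 0.521 (exact permutation p = 0.0794) and 0 called genes. The count test with at least 500 genes, and values inside members under that setting, were not run because too few libraries kept 20 members. Counts limit single genes: only 678 genes had enough UMIs to be tested.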
